A study of Mus musculus with 7 samples.

Results

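The regions described here are stretches of open chromatin that had an ATAC-seq peak in both libraries of Hoxb1-GFP positive cells and in none of the other 5 libraries of the series. They were chosen by their peak calls: the peaks of all 7 lists with a -log10 q-value of at least 2 (q at most 0.01) were merged where they shared 1 bp, on chromosomes 1 to 19, and a merged region was kept if both GFP+ lists and no other list contributed to it. Of 203618 merged regions, 1122 (0.551%) met this rule. They were 3.42% of the 32827 regions with a peak in both GFP+ libraries and 5.53% of the 20286 regions with a peak in exactly 2 libraries. A promoter region overlapped the stretch from 1000 bp upstream to 100 bp downstream of a transcription start site (TSS) of RefSeq. 45 of the GFP+ only regions were promoter regions and 1077 were distal.

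The libraries were made from cells sorted from the dissected second heart field region of mouse embryos at E9.5, pooled over embryos, and ATAC-seq cuts accessible DNA with a transposase. *Hoxb1*GFP embryos gave the GFP+ cells (replicates 3 and 4) and the GFP- cells (replicates 1 and 2). Their GFP is inserted into *Hoxb1*, and the insertion also serves as the null allele. The zygosity of the sorted embryos is not given in the sources used here. *Mef2c-Cre;Rosa*tdT embryos gave the Tomato+ cells (replicates 6 and 8) and the Tomato- cells (replicate 7). Cre under an anterior heart field element of *Mef2c* marks cells and their descendants with tdTomato. Replicate numbers are adapter numbers, and the labels do not say whether libraries of different populations came from the same sort. Population and mouse line cannot be told apart between GFP and Tomato libraries, and nothing in the labels says whether replicates came from separate pools of embryos. The 7 lists held between 187914 and 291287 peaks, from an estimated 52340120 to 93074895 tags. The lowest number of overlapping tags in a peak with q at most 0.01 was 10 in GFP+ replicate 3 and 12 in GFP+ replicate 4. It was 10 to 13 in the other libraries.

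The second heart field is a pool of progenitors in pharyngeal mesoderm that is added to the poles of the growing heart tube. Its posterior part expresses Hox genes such as *Hoxb1* under retinoic acid signalling and contributes to the atria, the atrial septum and the lower outflow tract wall, while its anterior part contributes to the outflow tract and right ventricle. Hox proteins bind DNA together with the TALE homeodomain proteins PBX and MEIS, on a composite site in which a PBX half-site and a Hox half-site lie side by side. TEAD factors are the DNA-binding partners of YAP in the Hippo pathway, and GATA, NKX2 and FOX factors act in many heart progenitors.

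The sequences of the strongest distal regions are shown first, because they are the regions on which a claim of GFP+ restricted opening would rest most. They are 3 of the 4 distal regions with the largest fold enrichment in the weaker of both GFP+ libraries among those in single-copy sequence, as the summit with 100 bp on either side, on the plus strand of GRCm38. Capitals mark matches to PBX-HOX (TGATTNAT), homeodomain (TAATTA), TEAD (GGAATG), FOX (GTAAACA), NKX (CACTTNA) or the site of GATA factors, AGATAA, on either strand. Each is named by the gene with the nearest TSS.
Gm9530, chr1:155027657-155027857: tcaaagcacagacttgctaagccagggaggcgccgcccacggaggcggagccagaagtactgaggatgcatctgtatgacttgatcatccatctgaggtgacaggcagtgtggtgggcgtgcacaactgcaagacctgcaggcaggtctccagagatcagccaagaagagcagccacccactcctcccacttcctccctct
Tbx18, chr9:87562904-87563104: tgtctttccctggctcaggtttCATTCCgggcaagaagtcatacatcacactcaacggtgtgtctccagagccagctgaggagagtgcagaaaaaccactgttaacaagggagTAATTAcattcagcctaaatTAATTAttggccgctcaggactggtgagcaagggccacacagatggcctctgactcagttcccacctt
Hs2st1, chr3:144519075-144519275: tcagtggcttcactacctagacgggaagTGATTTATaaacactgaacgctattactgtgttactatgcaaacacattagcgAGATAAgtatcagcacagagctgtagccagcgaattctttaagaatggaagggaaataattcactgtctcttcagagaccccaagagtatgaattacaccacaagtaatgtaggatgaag

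The region near *Tbx18* (chr9:87562804-87563161) was intergenic, 168256 bp downstream of the *Tbx18* TSS. *Tbx18* encodes a T-box factor of the sinus horn and epicardial lineage and is on the posterior second heart field list. Its fold enrichment over local background was 5.12 in GFP+ replicate 3 and 8.26 in GFP+ replicate 4, the highest value of any GFP+ only region in either library. The -log10 q-values were 6.39 and 19.1, and the summits of both replicates lay 5 bp apart. Among the other libraries, only Tomato+ replicate 6 had a deposited peak there, with a fold of 3.29 and a -log10 q-value of 1.83, under the limit of 2. Its sequence held 2 homeodomain matches and a TEAD match on the minus strand.

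The region near *Gm9530* (chr1:155027561-155027898), 55507 bp downstream of the TSS, had folds of 5.21 and 5.43 in GFP+ replicates 3 and 4, and weaker peaks of 2.01 to 2.8 were listed in 4 other libraries. None of the marked motifs was found in its window. The region in intron 1 of *Hs2st1* (chr3:144519059-144519234), a heparan sulfate 2-O-sulfotransferase, had folds of 5.35 and 5.0 and only a peak of 2.24 in Tomato+ replicate 6. It held a PBX-HOX match and a GATA match.

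The other regions among the 8 strongest in single-copy sequence also differed in how far they were listed elsewhere. A region in intron 1 of *Wls*, whose product carries Wnt ligands to the cell surface, had folds of 4.52 and 4.75 in the GFP+ replicates, and among the others a peak (2.96) was listed for Tomato+ replicate 6 alone. A region in intron 9 of *Magi2*, for which *Phtf2* had the nearest TSS, had folds of 4.52 and 5.25 but weaker peaks of 2.52 to 3.29 in 4 other libraries, and its GFP+ summits lay 313 bp apart. The regions near *Gm13923* (4.82 and 5.5) and *Hpx* (5.12 and 4.5) each had weaker peaks in 3 other libraries. In the plot of named regions by library, every one of the 7 distal regions in the top block was higher in both GFP+ libraries than in any other library, which the rule in part fixes.

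**Figure D1:**
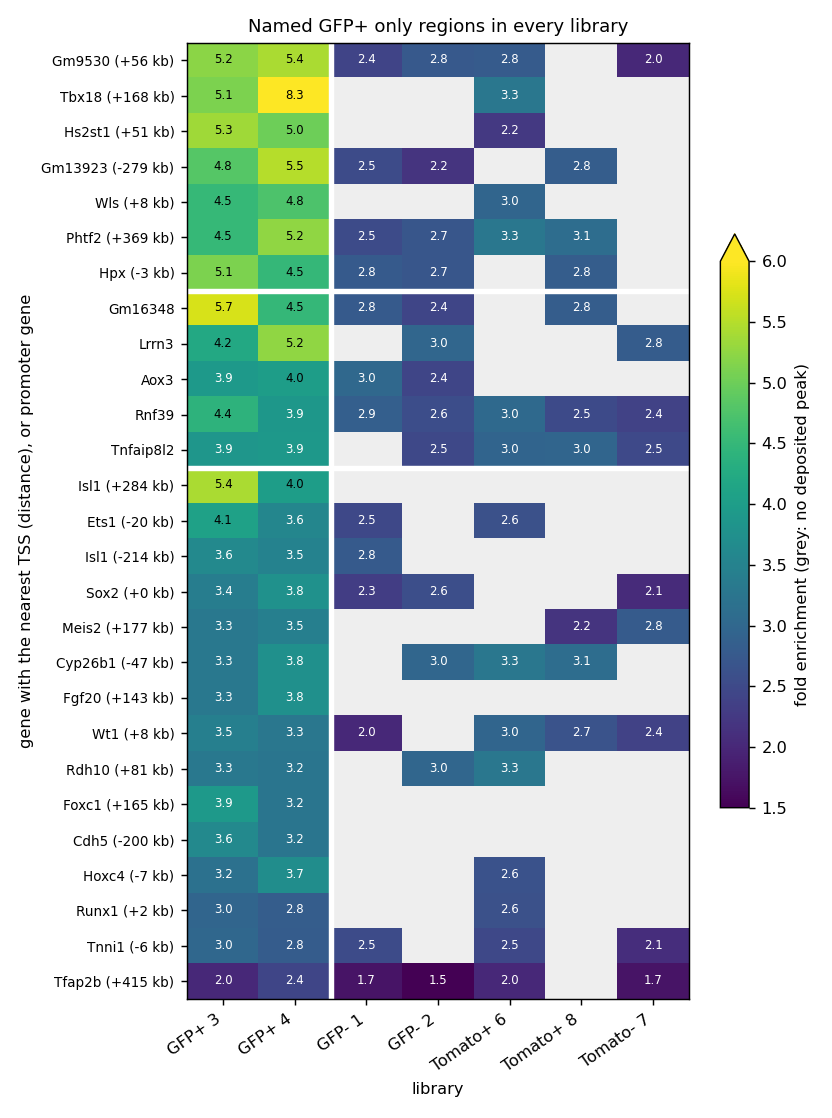
Fold enrichment over local background (colour and number) of named GFP+ only regions (rows) in each of the 7 libraries (columns), with grey where the list holds no peak. The blocks from top to bottom are 7 of the 8 strongest single-copy distal regions, 5 of the 6 strongest promoter regions and 15 regions at genes of the fixed lists that are not in the upper blocks. Weaker peaks of other libraries fill much of the upper blocks, and the upper *Isl1* row and the *Fgf20*, *Foxc1* and *Cdh5* rows are grey in all 5 other libraries.

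GFP+ only regions were weaker peaks than other regions shared by both GFP+ libraries, which the rule in part fixes. Those other regions all had a peak in another library too, and 22070 of them had one in all 7. Folds and pileups of other regions of 2 libraries are not given here. The median fold was 3.60 in GFP+ replicate 3 (range 2.02 to 6.93) and 3.39 in GFP+ replicate 4 (range 2.07 to 8.26), against 5.12 and 5.04 in the other 31705 regions with a peak in both GFP+ libraries. The median pileup, the number of tags over the summit, was 12 and 14. 513 (45.7%) of the regions in GFP+ replicate 3 and 517 (46.1%) in GFP+ replicate 4 lay within 1 tag of the lowest pileup that reached the limit. 657 (58.6%) had a -log10 q-value under 2.5 in at least 1 GFP+ library, 196 reached 3 in both, and 44 reached a fold of 4 in both. Folds of the replicates were weakly related across the regions (Spearman's rho = 0.251 over 1122 regions, which are not independent replicates and were selected on these values).

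**Figure D2:**
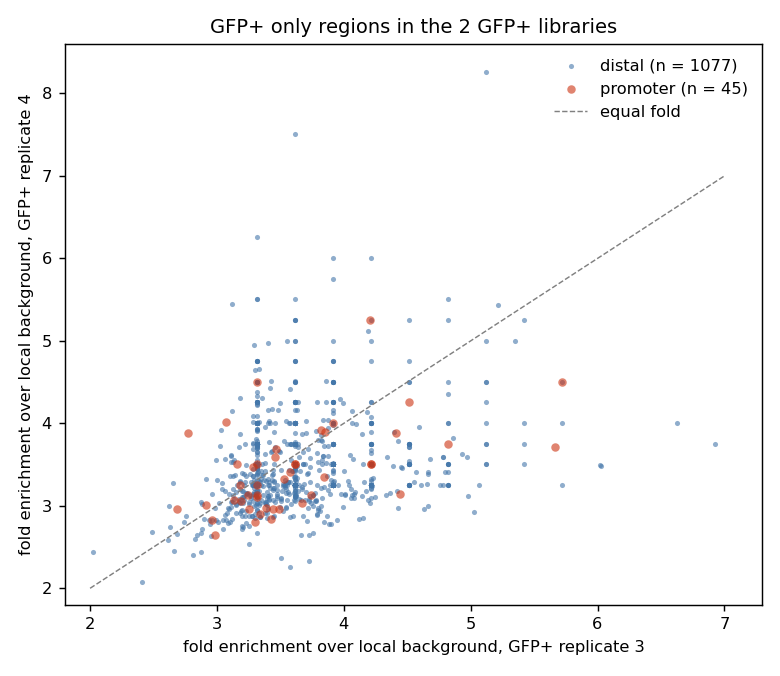
Fold enrichment over local background of each GFP+ only region in GFP+ replicate 3 (horizontal axis) and GFP+ replicate 4 (vertical axis), with distal regions in blue and promoter regions in red. The quartiles are 3.31 and 3.92 on the horizontal axis and 3.25 and 3.75 on the vertical axis, and the highest point is the distal region near *Tbx18*.

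Regions just inside and just outside the threshold had close values. The region at chr3:88169472-88169614 was kept with -log10 q-values of 2.002 and 2.95. The region at chr4:145440077-145440261 had 2.01 and 2.03 in the GFP+ replicates and was left out because of a value of 2.003 in GFP- replicate 2. Of 1607 regions with peaks in both GFP+ libraries and exactly 1 other library, 407 were left out by a peak with a -log10 q-value under 2.5.

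Part of the regions overlapped a peak under the limit elsewhere. These shares were not computed for other regions, so they cannot be read as particular to GFP+ only regions. Of the 1122 regions, 332 (29.6%) overlapped a weaker deposited peak in GFP- replicate 1 and 367 (32.7%) in GFP- replicate 2. The values were 428 (38.1%) in Tomato+ replicate 6, 345 (30.7%) in Tomato+ replicate 8 and 331 (29.5%) in Tomato- replicate 7. The share was highest in Tomato+ replicate 6, where the 95% Wilson interval was 35.3-41.0%, above the intervals of GFP- replicate 1 (27-32.3%), Tomato- replicate 7 (26.9-32.2%) and Tomato+ replicate 8 (28.1-33.5%), and overlapping that of GFP- replicate 2 (30.0-35.5%). The list of Tomato+ replicate 6 was also the longest of these 5, with 248015 peaks against 187914 to 230683. These and all later intervals cover counting error only. 268 regions (23.9%), of which 261 were distal and 7 were promoter regions, had no deposited peak in any of the other 5 lists. 26 had one in all 5.

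The labels were checked against the same rule in every pair of libraries. The 21 pairs had between 641 and 1404 regions found in exactly those 2 libraries, with a median of 926. The GFP+ pair, with 1122, ranked eighth, and 6 of the 18 pairs of different populations had more regions. GFP+ replicate 4 shared 1245 such regions with Tomato- replicate 7, and 1194 with Tomato+ replicate 6. The number alone therefore does not set the GFP+ pair apart from pairs of mixed populations, and the regions are named here by the rule and not as elements of a cell type. The summits of the 2 libraries lay a median of 34 bp apart in the GFP+ only regions, within the range of the other pairs (32 to 47 bp), against 23 bp in other regions shared by both GFP+ libraries.

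**Figure D3:**
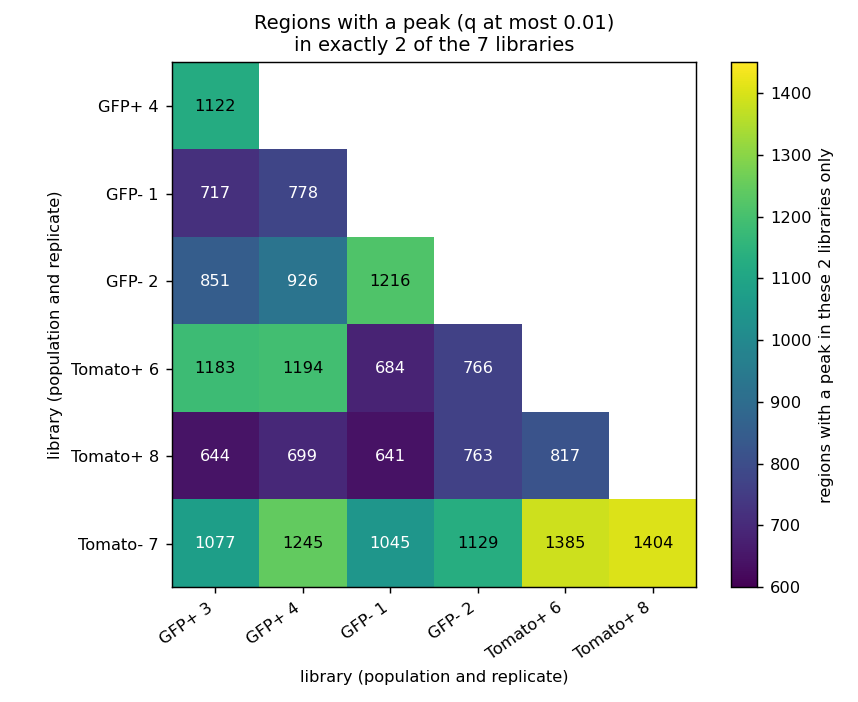
Number of regions with a peak (q at most 0.01) in exactly the 2 libraries of a row and a column, for all 21 pairs. The GFP+ pair (1122) lies within the range of the pairs of different populations (641 to 1404), and the highest counts join Tomato- replicate 7 to both Tomato+ libraries.

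In the lists given here, promoters of defining genes did not separate the GFP+ libraries from all the others either. Promoters of 10 and 11 of the 14 posterior second heart field genes were open in GFP+ replicates 3 and 4, and of 9 to 10 in each of the other 5 libraries. For 10 anterior second heart field genes the numbers were 7 in both GFP+ libraries and 6 to 8 in the others. For 11 cardiomyocyte genes the numbers were 4 and 3 in the GFP+ libraries, 2 and 1 in the GFP- libraries, 4 in Tomato+ replicate 6, 1 in Tomato+ replicate 8 and 3 in Tomato- replicate 7. In this list both GFP+ libraries lay above both GFP- libraries, on few genes. Promoters of 9 and 10 of 13 hindbrain and neural tube genes were open in the GFP+ libraries and of 8 to 11 elsewhere. The part of other cell types in the sorts was not tested.

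By exclusive regions, Tomato+ replicate 6 stood closer to the GFP+ libraries than its replicate did. The run name that the peak caller kept for it contains the letters YFP, while its sample label names *Mef2c-Cre;Rosa*tdT mice, and the label was followed. It shared 1183 and 1194 regions exclusively with GFP+ replicates 3 and 4, whereas Tomato+ replicate 8 shared 644 and 699. With Tomato- replicate 7, Tomato+ replicates 6 and 8 shared more, 1385 and 1404. Counting all shared regions, Tomato+ replicate 6 had 31457 and 31856 with GFP+ replicates 3 and 4. Tomato+ replicate 8 had 30963 and 31562, from 60806 peaks at the limit against 67972 in Tomato+ replicate 6. Among all 35 sets of 3 libraries, the 2 GFP+ libraries with Tomato+ replicate 6 had the most exclusive regions (515, against 428 in the next set and a median of 250). Without Tomato+ replicate 6, the rule gave 1657 regions in place of 1122. The share of distal regions with most bases soft-masked was then 15.97%, against 18.5%. The motif shares without this library are given with the motifs, and the share on chromosome 1, the TSS distances, the gene lists, FOX and NKX were not recomputed without it.

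PBX-HOX matches were more frequent in distal GFP+ only regions than in other regions of 2 libraries. Of all 19164 such other regions, promoter regions included, 1216 were GFP- only and 817 Tomato+ only. The rest came from pairs of different populations, so the GFP+ pair is set mostly beside mixed pairs, here and for the other motifs. The part of replicate agreement in the motif shares was not tested. 42 of 1077 (3.90%, 95% interval 2.90-5.23%) had a match to TGATTNAT within 100 bp of the summit. The share was 2.08% (1.89-2.3%) in 18237 other distal regions with a peak in exactly 2 libraries, 1.99% in all 185362 distal regions and 1.41% (0.791-2.51%) in 778 distal regions found only in both Tomato+ libraries. It was 5.03% (3.92-6.44%) in 1172 distal regions found only in both GFP- libraries, and the intervals of GFP+ only and GFP- only regions overlapped. Weighted to the GC content of the GFP+ only regions, the shares were 2.22% for other regions of 2 libraries and 3.75% for GFP- only regions, so the order of GFP+ only and GFP- only regions turned with the weighting. PBX-PREP (TGATTGAC), another PBX site, differs from PBX-HOX in the last letter, so no site can match both. All matches were counted on both strands.

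The match sites themselves are shown for 8 distal regions, the strongest in single-copy sequence that hold one, in 51 bp around the site on the plus strand of GRCm38. These regions were chosen after their values were seen. Capitals mark TGATTNAT or, for a site on the minus strand, its reverse complement.
Hs2st1, chr3:144519082-144519132: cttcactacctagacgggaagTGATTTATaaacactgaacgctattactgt
AI314278, chr7:89423311-89423361: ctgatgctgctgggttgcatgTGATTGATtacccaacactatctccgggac
Mir582 (intron 3 of Pde4d), chr13:109278664-109278714: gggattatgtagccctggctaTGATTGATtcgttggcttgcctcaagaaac
1700128A07Rik, chr14:106314083-106314133: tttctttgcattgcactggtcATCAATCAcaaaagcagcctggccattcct
Mir6239 (intron 4 of Gpc6), chr14:117681805-117681855: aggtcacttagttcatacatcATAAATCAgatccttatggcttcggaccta
Has2, chr15:56858339-56858389: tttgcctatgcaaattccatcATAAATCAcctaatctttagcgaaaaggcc
Kcnc4, chr3:107420260-107420310: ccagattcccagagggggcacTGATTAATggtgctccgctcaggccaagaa
Ccdc42, chr11:68591830-68591880: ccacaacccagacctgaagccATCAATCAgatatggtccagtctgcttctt

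The region near *Has2* lay 163789 bp upstream of the TSS of that gene, which encodes the hyaluronan synthase of the cardiac jelly. Its folds were 3.92 and 6.0 in GFP+ replicates 3 and 4, and weaker peaks of 2.77 and 2.71 were listed in GFP- replicates 1 and 2 and none in the Tomato libraries. The region near *AI314278* had folds of 4.82 and 4.36, with peaks of 3.11 in GFP- replicate 2, 2.86 in Tomato+ replicate 6 and 2.83 in Tomato+ replicate 8. The region in intron 3 of *Pde4d*, a cAMP phosphodiesterase, had folds of 4.22 and 4.25 and no deposited peak in any other library. The free base of the 44 PBX-HOX sites was G in 14, C in 13, T in 10 and A in 7. In GFP- only regions it was A in 24 of 62 sites, G in 14, T in 18 and C in 6. 15 of the 44 sites (34.1%, 21.9-48.9%) lay within 25 bp of the summit, as did 153 of 403 (38.0%) in other regions of 2 libraries, and the intervals overlapped.

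TEAD matches were also more frequent than in other regions of 2 libraries. GGAATG was found in 181 distal GFP+ only regions (16.8%, 14.7-19.2%), against 11.5% (11.0-12%) in other regions of 2 libraries, 13.8% (12-15.9%) in GFP- only regions and 9.51% (7.64-11.8%) in Tomato+ only regions. In GFP+ only regions in single-copy sequence the share was 18.8% (151 of 804), against 12.6% in other single-copy regions of 2 libraries, and in those of more than 1 copy 11.0% (30 of 273). It was 20.7% (16.2-26.0%) in the 261 distal regions with no deposited peak in the other libraries and 15.6% (13.2-18.2%) in the 816 with one. These intervals overlapped, and other regions of 2 libraries were not divided in this way. The intervals of GFP+ only and GFP- only regions overlapped, and GC weighting moved the other shares by less than 1 percentage point.

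Of the remaining motifs, FOX (GTAAACA) was found in 3.44% (2.5-4.70%) of the distal GFP+ only regions and in 1.93% (1.74-2.13%) of other regions of 2 libraries. NKX (CACTTNA) was found in 9.94% (8.29-11.9%) against 7.55% (7.17-7.94%). The intervals of FOX and of NKX did not overlap those of other regions of 2 libraries, but overlapped those of GFP- only regions, at 2.47% (1.73-3.53%) for FOX and 8.70% (7.22-10.45%) for NKX. AGATAA, the site of GATA factors, was found in 7.43% (6.01-9.15%) against 6.97% (6.61-7.35%), intervals that overlap. NR2F (AGGTCA), the half-site of nuclear receptors including COUP-TFII, was found in 16.9% (14.8-19.3%) against 14.5% (14.0-15.0%). MEIS (TGACAG) was found in 18.2% (16-20.6%) against 16.4% (15.9-17.0%), and SOX (CTTTGT) in 13.7% (11.8-15.9%) against 13.6% (13.1-14.1%). In percentage points, SOX was the motif of the 18 in which GFP+ and GFP- only regions lay farthest apart, since 23.8% (21.5-26.3%) of GFP- only regions held it. PBX-PREP was found in 1 GFP+ only region (0.093%, 0.016-0.524%), against 0.411% (0.328-0.515%) of other regions of 2 libraries. These intervals overlapped, as did those of NR2F, MEIS and SOX with other regions of 2 libraries. Of the 18 motifs searched, RUNX (TGTGGTT), HAND (CATCTG), TBX (AGGTGT), MEF2 (TATTTNTAG), CTCF (AGGGGGC), SP (GGGCGG), AP-1 (TGANTCA), POU (ATGCAAAT) and homeodomain gave shares whose intervals overlapped those of other regions of 2 libraries.

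**Figure D4:**
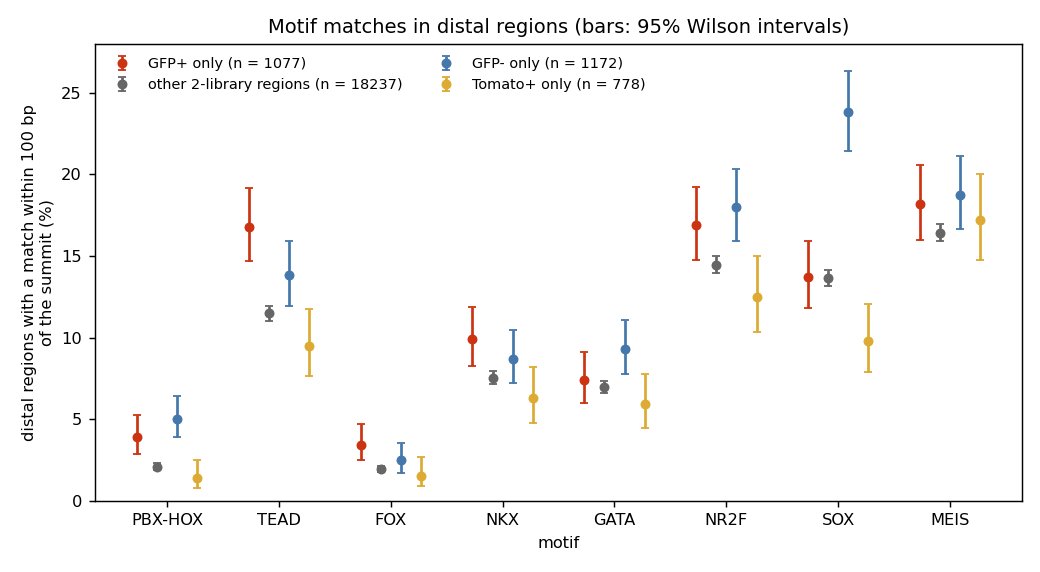
Percentage of distal regions with a match to each of 8 motifs within 100 bp of the summit, for GFP+ only, other 2-library, GFP- only and Tomato+ only regions. Bars are 95% Wilson intervals. PBX-HOX and TEAD points of GFP+ only regions lie above those of other 2-library and Tomato+ only regions, PBX-HOX is highest in GFP- only regions, and SOX is at 23.8% in GFP- only against 13.7% in GFP+ only regions.

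Tomato+ replicate 6 shared these motifs. In the 483 distal regions found only in both GFP+ libraries and Tomato+ replicate 6, the PBX-HOX share was 7.25% (5.26-9.91%), the TEAD share 21.1% (17.7-25%) and the GATA share 17.0% (13.9-20.6%). No other set of 3 libraries exceeded 5.51% for PBX-HOX or 16.5% for TEAD. Among the pairs, GFP+ replicate 3 with Tomato+ replicate 6 (17.6%) and GFP+ replicate 4 with Tomato+ replicate 6 (16.1%) lay just above and just below the GFP+ pair (16.8%) for TEAD, and no other pair of libraries exceeded the GFP- pair (13.8%). Leaving Tomato+ replicate 6 out of the rule raised the GATA share from 7.43% to 9.92% and the PBX-HOX share from 3.90% to 4.58%. This follows by construction, because the regions of that set of 3 libraries then count as GFP+ only.

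**Figure D5:**
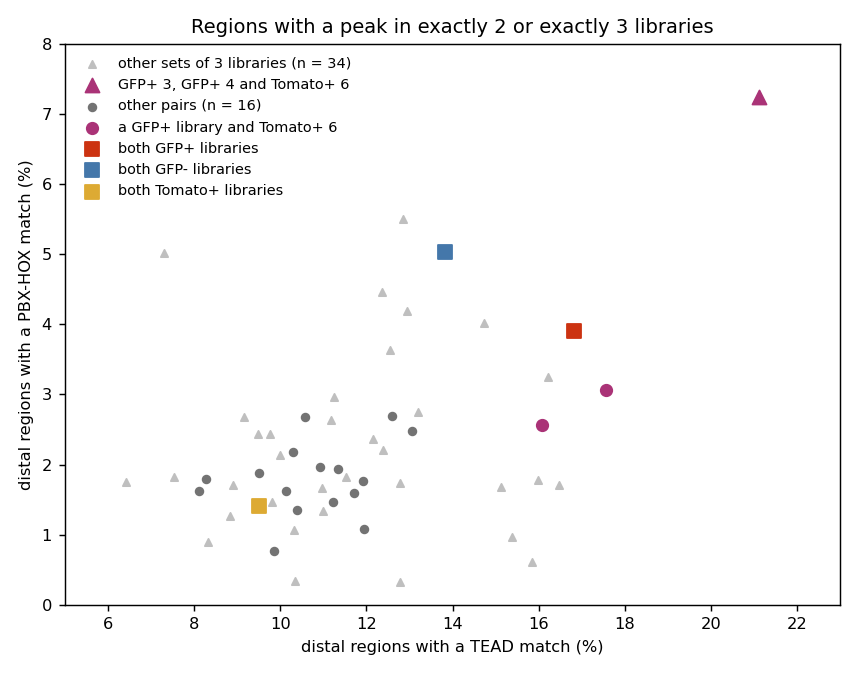
Share of distal regions with a TEAD match (horizontal axis) and with a PBX-HOX match (vertical axis), 1 point for each pair (squares for 2 libraries of the same population, circles for different populations) or set of 3 libraries (triangles), over the regions found in exactly those libraries. The set of both GFP+ libraries with Tomato+ replicate 6 lies at 21.1% and 7.25%, the GFP+ pair at 16.8% and 3.90%, and the GFP- pair at 13.8% and 5.03%.

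Genes of the lists fixed for the tissue were nearest to, or had a promoter in, 17 of the 1122 regions (1.52%), against 1.16% of the other regions of 2 libraries and 1.02% of all regions. All 17 were distal by the promoter window used, but the *Sox2* and *Runx1* regions lay in exons, 348 and 1815 bp downstream of the TSS. Of the 11 lists, anterior second heart field (*Isl1* at 2 regions, *Fgf20*) and retinoic acid (*Rdh10* and *Cyp26b1* among them) had 3 regions each. Hox and TALE (*Hoxc4*, *Meis2*), neural crest (*Ets1*, *Tfap2b*) and endothelial and blood (*Cdh5*, *Runx1*) had 2 each. Posterior second heart field (*Tbx18*), cardiomyocyte (*Tnni1*), hindbrain and neural tube (*Sox2*), paraxial mesoderm (*Foxc1*) and proepicardium and septum transversum (*Wt1*) had 1 each, and endoderm had none. No list is set apart from another by counts this small.

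*Isl1* encodes the LIM homeodomain factor of second heart field progenitors. Its stronger region (chr13:116025990-116026174) lay 283628 bp downstream of the TSS, in intergenic sequence, with folds of 5.42 and 4.0 in GFP+ replicates 3 and 4 and no deposited peak in any other library. *Foxc1* encodes a forkhead factor of paraxial and pharyngeal mesoderm. Its region (chr13:31971272-31971506), in intron 7 of *Gmds*, had folds of 3.92 and 3.25 and no deposited peak elsewhere. Both regions were listed in the GFP+ libraries alone, and their windows are shown with capitals as for the strongest distal regions. The *Cdh5* region, without a match to any of the 18 motifs, and the *Fgf20* region, in repeats, were also listed there alone and are not shown. Both windows shown were chosen after their values were seen.
Isl1, chr13:116025960-116026160: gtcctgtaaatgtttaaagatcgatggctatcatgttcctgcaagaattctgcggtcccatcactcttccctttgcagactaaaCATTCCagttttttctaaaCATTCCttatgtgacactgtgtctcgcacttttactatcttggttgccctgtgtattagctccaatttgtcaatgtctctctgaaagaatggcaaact
Foxc1, chr13:31971288-31971488: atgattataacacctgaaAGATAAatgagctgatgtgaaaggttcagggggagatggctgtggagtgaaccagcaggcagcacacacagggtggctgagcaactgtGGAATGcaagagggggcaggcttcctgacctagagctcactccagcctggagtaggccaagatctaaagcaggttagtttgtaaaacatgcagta

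The *Isl1* sequence holds 2 TEAD matches on the minus strand around the summit, and the *Foxc1* sequence a TEAD and a GATA match. The second *Isl1* region, 214275 bp upstream of the TSS, had folds of 3.61 and 3.50, and a peak of 2.77 in GFP- replicate 1 alone among the others. The region in intron 9 of *Meis2*, a TALE cofactor of Hox proteins, had folds of 3.31 and 3.45, with weaker peaks in Tomato- replicate 7 (2.79) and Tomato+ replicate 8 (2.18). The region 6982 bp upstream of *Hoxc4* had folds of 3.17 and 3.71, and 2.63 in Tomato+ replicate 6 alone among the others. The region upstream of *Cyp26b1*, which degrades retinoic acid, lay in an intron of *Exoc6b* and had 3.31 and 3.75 with weaker peaks of 2.99 to 3.29 in 3 other libraries. *Rdh10*, which makes retinal, had 3.31 and 3.25, and the fold of 3.29 in Tomato+ replicate 6 lay between them.

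Other list genes had weaker peaks in many libraries or lay in repeats. The *Wt1* region in intron 3, with folds of 3.45 and 3.29, had weaker peaks in 4 other libraries and a -log10 q-value of 1.99 in Tomato+ replicate 6. The *Tnni1* region, near a slow troponin I gene, had 3.0 and 2.81 and weaker peaks in 3 others. The *Fgf20* and *Tfap2b* regions lay in sequence with a median of 61 and 842 copies in the genome, so their reads cannot be assigned to 1 place. *Cdh5* (3.61 and 3.25, no peak elsewhere), *Runx1* (2.96 and 2.83), *Ets1* (4.07 and 3.57) and *Sox2* (3.41 and 3.77) are on the lists for endothelium and blood, neural crest and neural tube.

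Of the 515 regions with a peak in both GFP+ libraries and Tomato+ replicate 6 alone, 15 (2.91%) were at list genes. These were *Hoxb1* (31484 bp from its TSS), *Nr2f2* at 2 regions, *Tbx5*, *Isl1*, *Tbx1*, *Eya1*, *Meis2*, *Nppa*, *Tnni1*, *Tnnt2* and *Tcf21*, as well as *Foxc1* at 2 regions and *Foxa2*. The *Tbx5* region had a fold of 8.0 in Tomato+ replicate 6, against 3.98 and 3.16 in the GFP+ replicates. 1 other set of 3 libraries, GFP- replicate 2 with GFP+ replicate 4 and Tomato+ replicate 8, had a higher share (3.05%, 5 of 164 regions).

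The 45 promoter regions made up 4.01% (3.01-5.32%) of the GFP+ only regions. The share was 4.84% (4.54-5.15%) in other regions of 2 libraries, 4.77% in Tomato+ only and 3.62% in GFP- only regions, against 49.5% in the 22070 regions found in all 7 libraries. The strongest promoter region is shown for its sequence, with capitals as before. The window of *Lrrn3* lies over an exon and is not shown.
Gm16348, chr8:41217897-41218097: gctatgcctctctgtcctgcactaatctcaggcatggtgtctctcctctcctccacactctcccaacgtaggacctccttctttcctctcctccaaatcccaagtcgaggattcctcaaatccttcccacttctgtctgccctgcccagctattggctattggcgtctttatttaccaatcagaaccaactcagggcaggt

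The promoter region of *Gm16348* had folds of 5.72 and 4.5 in GFP+ replicates 3 and 4, and weaker peaks of 2.44 to 2.83 in 3 other libraries. 75.6% of its window is soft-masked repeat, and no match to any of the 18 motifs was found in it. Others among the 6 strongest were *Lrrn3* (4.21 and 5.25), *Aox3* (3.92 and 4.0), *Rnf39* (4.41 and 3.88, with weaker peaks in all 5 other libraries and 4 copies of its sequence) and *Tnfaip8l2* (3.86 and 3.90). None of these genes is on a fixed list.

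Some other promoter regions are named here by hand, after their values were seen, and stand for no group. No promoter region was at a gene of the fixed lists. *Wnt11*, a non-canonical Wnt ligand needed in outflow tract formation, had folds of 2.99 and 2.65, the lowest of the promoter regions in GFP+ replicate 4, and weaker peaks in GFP- replicate 2 (2.03) and Tomato- replicate 7 (1.74). *Hoxd13*, a Hox gene of the posterior body and limb, had 3.31 and 3.14, with 2.07 in Tomato+ replicate 8 alone among the others. *Wnt8a* had 3.53 and 3.33, *Adamts16* 3.67 and 3.04, *Zfp608* 3.44 and 2.96 and *Gdf7* 3.19 and 3.06. *Gdf7* had weaker peaks in all 5 other libraries. 7 promoter regions had no deposited peak in any other library and 7 had one in all 5.

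Distal GFP+ only regions lay farther from a TSS than other distal regions of 2 libraries and nearer than GFP- only regions. Their median distance to the nearest TSS was 32094 bp (quartiles 11581 and 85076 bp), against 26971 bp in other distal regions of 2 libraries, 26533 bp in Tomato+ only and 39278 bp in GFP- only regions. 232 of them (21.5%, 19.2-24.1%) lay more than 100000 bp from any TSS, against 17.3% (16.7-17.8%) in other regions of 2 libraries and 27.6% in GFP- only regions. 461 (42.8%) had their summit in an intron, 78 (7.24%) in an exon and 538 (49.95%) in intergenic sequence, shares within 1 percentage point of those in other regions of 2 libraries. Their median GC content was 53.2% within 100 bp of the summit, against 54.2%, and their median length 226 bp, against 233 bp.

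The regions spread over many genes. 998 genes were nearest to 1 region, 50 to 2 and 8 to 3. Of these 8, *Asprv1* and *Xylt1* had all 3 regions in single-copy sequence and *Cxcr4*, a chemokine receptor gene, had 2. Many merged regions of any kind were nearest to some of these genes, with 77 for *Xylt1*, 69 for *Cxcr4* and 127 for *6820431F20Rik*, against 18 for *Asprv1*. The 3 *Xylt1* regions, a xylosyltransferase gene of proteoglycan synthesis, had folds of 3.31 to 3.68 in GFP+ replicate 3 and 3.15 to 3.65 in GFP+ replicate 4. The 2 single-copy *Cxcr4* regions lay 139396 and 211031 bp upstream of its TSS, with folds of 3.31 and 3.39 in GFP+ replicate 3 and 4.25 and 3.30 in GFP+ replicate 4. *Mir3099*, inside *Usp29*, had 1 in single-copy sequence and 2 with 2 copies. *Cntnap5a* (1145 to 1583 copies), *Gm24027* in the *Snhg14* transcript (46 to 88 copies), *Pramel37* and *6820431F20Rik* had none.

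Most regions lay in sequence that occurs once in the genome. 841 regions (74.96%, 72.3-77.4%) lay in single-copy sequence, as did 75.5% of other regions of 2 libraries, and 145 (12.9%) in sequence with at least 10 copies. Chromosome 1 held 140 of the regions (12.5%, 10.7-14.5%), against 7.93% (7.56-8.32%) of other regions of 2 libraries and 8.26% of all regions. The share was 9.90% to 11.2% in the pairs of a GFP+ with a GFP- library, 8.72% in GFP- only regions, 5.88% in Tomato+ only regions and 10.8% in regions found in all 7 libraries. 66 of the 281 regions of more than 1 copy were on it (23.5%, 18.9-28.8%), against 12.5% (11.6-13.48%) in other regions of 2 libraries. In single-copy sequence the share was 8.80% (7.07-10.9%), against 6.44% (6.06-6.86%). The part of read placement in this was not tested.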

How the data were processed

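ATAC-seq peak lists of 7 libraries of sorted E9.5 mouse cells were used. Alignment by the authors was to GRCm38 with SNAP. They removed duplicates, improper pairs and blacklisted reads, and called peaks in each library with MACS (2.1.1 per the labels, another build of 2.1 per the one file header). Replicates were not pooled. The deposited pileup, a coverage signal, counts tags over the summit and is not scaled to depth. The deposited fold enrichment is the ratio of pileup to local background, and the deposited -log10 p-value and q-value also grow with depth. The deposited peak positions are on mm10, and no peak lay past the end of a chromosome of the GRCm38 reference. That header, of Tomato+ replicate 6, gives a p limit of 0.01, no control and ends moved 37 bp towards 3' and extended to 73 bp, which can move summits.

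Peaks with several summits were reduced to the one with the smallest p. Tags were estimated from the smallest background rate of each list. TSSs were those of 43783 curated RefSeq transcripts. GC, soft-masked bases and motifs were read within 100 bp of the region's summit, and copies as the median of 31-mers starting every 5 bp within 50 bp of it. GC weighting used bins of 2%. Alternatives varied the q limit, list length, overlap, libraries and windows. Those limited to single-copy sequence, and those of the list choices for TEAD and GATA, were added after seeing the data. The rule uses the same lists, so no test was run, and shares carry 95% Wilson intervals. The members, gene lists, motifs and alternatives were chosen with earlier results of these data known. Regions named were the 8 strongest single-copy distal regions and 6 strongest promoter regions by the lower GFP+ fold, the 3 strongest of any copy number (which are the first 3 of these 8), those at list genes, and those at the 8 genes nearest to most regions. Some of these are not reported here. Merging, motif, copy and interval code was tested on simulated data. Software was numba 0.67.0, scipy 1.17.1, pandas 2.3.3, numpy 2.4.6 and matplotlib 3.10.9 under Python 3.11.15.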

Additional observations from a re-analysis of the deposited data

How the results depend on the processing

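Of 104 recomputed values, 62 moved by less than their interval or by less than 1.5 times and 42 moved by more. With a -log10 q-value of at least 3 in every library, 511 regions were left, with a promoter share of 7.44% and a share of distal regions with most bases soft-masked of 21.4%. In other regions of 2 libraries these shares were 7.06% and 29.8%. At a limit of 1, 2797 regions were left, with 2.72%, 13.7%, a PBX-HOX share of 2.35% and a TEAD share of 13.2%. Other regions of 2 libraries then had 3.09%, 13.16%, 1.685% and 11.4%. With the 50000 strongest peaks of each list the number was 726, the promoter share 5.51% and the soft-masked share 22%, against shares of 5.83% and 25.6% in other regions. With the 30000 strongest the number and these shares were 371, 15.6% and 28.4%, with a median GC of 54.2% and a TEAD share of 14.4%. Other regions then had 10.1%, 36.0%, 53.2% and 11.7%. The promoter share thus lay below that of other regions in the main setting (4.01% against 4.84%) and above it with the 30000 strongest. With no deposited peak in the other 5 libraries, 268 regions were left, with 2.61% promoters, 29.5% soft-masked, 51.2% GC and a TEAD share of 20.7%. No other regions were cut in this way to set beside them. Within 50 bp of the summit the PBX-HOX, TEAD and GATA shares were 2.23%, 9.01% and 4.18%, and within 200 bp 6.96%, 25.4% and 17.7%. In other regions of 2 libraries they were 1.32%, 6.25% and 3.81% within 50 bp, and 4.485%, 21.2% and 14.7% within 200 bp. In single-copy sequence the chromosome 1 share was 8.80%, against 6.44% in other regions. The causes were not tested beyond what each alternative changes by construction.

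With each library left out in turn, the number ranged from 1343 to 23607, the promoter share from 2.33% to 5.13%, the median GC from 51.2% to 53.7%, the soft-masked share from 14.8% to 21.5%, and the PBX-HOX, TEAD and GATA shares from 2.14% to 4.58%, 11.9% to 17.6% and 6.61% to 9.92%. The highest numbers, 21184 without GFP+ replicate 3 and 23607 without GFP+ replicate 4, are regions of a single GFP+ library. The PBX-HOX and TEAD shares were above those of the other regions set beside them in 13 of 13 alternatives, and the GATA share in 11 of 13. These alternatives reuse largely the same regions and are not independent of each other. Alternatives with no other regions to set beside them are not counted. Among those, leaving out GFP+ replicate 3 or 4 gave PBX-HOX shares of 2.14% and 2.29% and TEAD shares of 11.9% and 12.3%. No paired analysis was possible because the replicate numbers are adapter numbers and the labels do not say which libraries, if any, came from the same sort.

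A region without a peak can be open below the limit. The lowest pileup that reached it was 10 to 13 tags, and the highest pileup that stayed under it was 103 to 322 tags, depending on the library. Each population has 1 or 2 libraries, so a difference between populations cannot be told apart from one between single libraries, and between GFP and Tomato libraries not from one between mouse lines.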
